A study of Mus musculus with 6 samples.

Results

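Polycomb, trithorax and chromatin remodelling genes were followed in embryoid bodies (EBs) treated with retinoic acid (RA). The genes were listed by name as known members of these complexes, without a rule on their values, though with earlier results of these data known. Of 42 listed genes, 40 were measured by a probe set that carries a single gene symbol, out of 19938 genes on the array. Cbx6, whose probe set carries several symbols, and Ash1l had no probe set that could be named here. Where a gene had several probe sets, the brightest was used, and this concerned 4 of the 40 genes (Chd7, Eed, Phc3 and Rybp).

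EBs are floating aggregates in which embryonic stem (ES) cells leave the pluripotent state. They were grown from R1 mouse ES cells, an established line, seeded at 35000 cells per ml without Lif, the cytokine that holds ES cells undifferentiated. When the EBs were 4 days old they were collected without RA (day 0) or placed in 2 µM RA and collected after a further 3 days (day 3) or 4 days (day 4), and 2 arrays were run per day. All groups thus share the cell line and the medium, and each holds EBs from a single line. No untreated EBs of the later ages were part of the design, so the effect of RA and that of EB age cannot be told apart. The labels do not say that the 2 arrays of a day came from separate cultures, and p-values then rest on the spread within a day, possibly a technical one. Values are log2 intensities, on which a difference of 1 is a 2-fold change.

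Polycomb complexes keep developmental genes silent. Polycomb repressive complex 2 (PRC2) methylates a lysine in the tail of histone H3, and PRC1 binds this mark through its Cbx subunits or is recruited without it, compacts chromatin and attaches ubiquitin to histone H2A. Trithorax proteins and the H3 demethylases act on the same or opposing marks. BAF and CHD complexes use ATP to slide or evict nucleosomes, and exchange of BAF subunits is well known from ES cells that turn into neural and muscle cells.

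The 5 genes that changed 2-fold or more were Cbx8, Bmi1 and Pcgf5 of PRC1, and Smarcc2 and Smarcd3 of BAF. Their promoters are shown because they carry the largest changes in both directions. Each sequence is the 250 bases before the start site, read 5′ to 3′ from RefSeq (GRCm38.p6), with every CpG in capitals. Cbx8 lies at chr11:119040914-119041163 (minus strand), Bmi1 at chr2:18676768-18677017 (plus), Pcgf5 at chr19:36348079-36348328 (plus, the most upstream of 3 listed starts), Smarcc2 at chr10:128458986-128459235 (plus) and Smarcd3 at chr5:24602003-24602252 (minus).
Cbx8: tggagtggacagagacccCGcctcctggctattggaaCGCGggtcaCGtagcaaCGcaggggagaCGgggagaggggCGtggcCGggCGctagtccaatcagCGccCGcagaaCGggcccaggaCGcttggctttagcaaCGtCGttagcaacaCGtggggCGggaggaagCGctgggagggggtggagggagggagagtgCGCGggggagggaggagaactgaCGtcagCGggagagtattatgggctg
Bmi1: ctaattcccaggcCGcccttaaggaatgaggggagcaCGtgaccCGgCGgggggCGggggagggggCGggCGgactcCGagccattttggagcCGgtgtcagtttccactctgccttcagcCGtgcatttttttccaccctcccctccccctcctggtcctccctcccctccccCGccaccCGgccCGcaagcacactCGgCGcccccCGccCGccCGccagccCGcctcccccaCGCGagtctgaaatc
Pcgf5: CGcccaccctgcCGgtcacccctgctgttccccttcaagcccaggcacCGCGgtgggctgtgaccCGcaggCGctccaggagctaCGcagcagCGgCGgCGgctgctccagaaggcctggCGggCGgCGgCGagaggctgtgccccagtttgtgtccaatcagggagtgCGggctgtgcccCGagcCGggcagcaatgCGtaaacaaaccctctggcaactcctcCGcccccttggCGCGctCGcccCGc
Smarcc2: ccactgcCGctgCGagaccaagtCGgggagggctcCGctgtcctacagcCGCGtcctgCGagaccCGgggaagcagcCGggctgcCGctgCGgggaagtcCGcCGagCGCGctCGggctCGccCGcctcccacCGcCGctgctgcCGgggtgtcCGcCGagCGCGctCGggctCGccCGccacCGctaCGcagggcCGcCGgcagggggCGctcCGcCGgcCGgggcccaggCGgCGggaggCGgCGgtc
Smarcd3: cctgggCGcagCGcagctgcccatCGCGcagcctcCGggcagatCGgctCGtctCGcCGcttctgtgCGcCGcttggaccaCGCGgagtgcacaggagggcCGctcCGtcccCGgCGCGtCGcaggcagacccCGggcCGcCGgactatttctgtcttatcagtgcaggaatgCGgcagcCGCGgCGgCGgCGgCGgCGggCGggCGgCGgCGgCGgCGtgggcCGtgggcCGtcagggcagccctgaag

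All 5 printed promoters were rich in CpG. The printed stretch held 22 CpG for Cbx8, 21 for Bmi1, 23 for Pcgf5, 40 for Smarcc2 and 38 for Smarcd3. At the printed start, the count of Pcgf5, the gene that fell, lay within the range of the genes that rose. Its other listed starts had 5 and 35 CpG in a window of 300 bases, against 34 for the printed start. Among the listed genes, 34 matched the RefSeq promoter table with 42 windows of 300 bases (250 before and 50 after the start). Their median was 26 CpG per window, against 7 over all 32851 windows, and 35 of the 42 windows (83.3%) held 15 or more, against 34.6% of all. The E-box letters CACGTG, which read the same on both strands, were in 8 of the 42 windows (19%) and in 7.15% of all windows. They stand as caCGtg in the printed stretches of Cbx8 and Bmi1. TTTCCCGC, a form of the E2F motif, was found on either strand in the windows of Arid1a, Phf19, Smarcd1 and Suz12, and in 1.07% of all windows. The other E2F form searched, TTTGGCGC, was in 1 window (Ezh2) and in 0.514% of all. The octamer ATGCAAAT was in 1 window (Phc2) and in 1.74% of all. The E-box and both E2F forms hold a CpG themselves, and the windows of the listed genes are richer in CpG than all windows. Shares in windows of like CpG count were not computed, so these shares are not read as a trait of the listed genes. The 8 E-box windows include that of Cbx6, which was not measured here. These matches describe letters in short windows and not bound sites.

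Against day 0, 18 of the 40 genes rose and 10 fell at day 3, and 11 rose and 17 fell at day 4 (limma, adjusted p of 0.05 or below). The genes called made up 70% of the 40 in both comparisons. Over all genes, 51.9% were called at day 3 (23.8% higher, 28.1% lower) and 51.5% at day 4 (25.9% higher, 25.6% lower). All 40 chromatin genes had a mean over 6. In a fit of the 13684 genes that reach this limit, 70.7% were called at day 3 (34% higher, 36.7% lower) and 71.4% at day 4 (36.2% higher, 35.2% lower). In that fit 19 of the 40 genes were higher and 10 lower at day 3, and 11 and 17 at day 4. The number of calls was thus near that of genes over this limit. Most of the 40 genes were far brighter than the limit, with a median of 10.24 to 10.52 on each array. A change of 2-fold or more was found in 5 of the 40 genes at day 3 and in 4 at day 4, against 9.23% and 10.4% of all genes. Both comparisons with day 0 share the same day 0 arrays, so their values are given side by side and not as independent evidence.

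Between day 3 and day 4 the balance differed. Of the 40 genes, 15 fell (37.5%), 1 rose and 24 were not called, whereas 12.2% of all genes fell and 15.8% rose (28.1% called). In the fit of genes that reach a mean of 6, 19.2% fell and 24.5% rose (43.7% called), and of the 40 genes 17 fell and 2 rose. The log2 change was below 0 for 32 of the 40 genes (80%), compared with 38.6% of all genes, and its median was −0.16 against 0.05. Among genes that reach a mean of 6, the change was below 0 for 42.7%, with a median of 0.04. None of the falls among the 40 genes reached 2-fold, which 0.767% of all genes passed in either direction. The count of 15 went down when any single array of day 3 or day 4 was left out, which leaves 1 array for that day. The share of all genes called lower went down in the same fits. The median change of the 40 genes was then −0.18 without replicate 1 of day 3 and −0.13 without replicate 2 of day 3. It was −0.19 without replicate 1 of day 4 and −0.12 without replicate 2 of day 4.

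Most genes called at both days kept their direction. At both days 10 genes were higher than at day 0 (Jarid2, Cbx2, Cbx8, Bmi1, Ring1, Rnf2, Kdm5b, Smarcc2, Smarcd3 and Arid1b), and 10 were lower (Ezh1, Eed, Phf19, Cbx7, Pcgf5, Pcgf6, Rybp, Phc1, Wdr5 and Chd1). Another 6 rose at day 3 and were not called at day 4 (Mtf2, Phc3, Kdm1a, Smarcc1, Smarcd1 and Arid1a), and 5 were not called at day 3 and fell at day 4 (Suz12, Pcgf2, Kdm4c, Smarca4 and Chd7). Phc2 was higher at day 4 and not called at day 3. Kdm6a and Kdm6b rose at day 3 and fell at day 4. Of the 40 genes, 35 were called in at least 1 of the 3 comparisons and 5 in none, namely Pcgf1, Pcgf3, Ash2l, Smarca2 and Smarcd2. Of these, Pcgf1, Pcgf3 and Ash2l were called higher in some fits with other settings. Small changes have no settled direction, because centering each array on its median shifts the median change of all genes to −0.15 at both days. With it, 12 genes were higher and 11 lower at day 3 (52.2% of calls higher, against 64.3%), and 10 were higher and 21 lower at day 4. Among the rises at day 3, the calls of Mtf2, Kdm6a, Kdm6b, Kdm1a, Smarcc1 and Smarcd1 were lost.

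**Figure D1:**
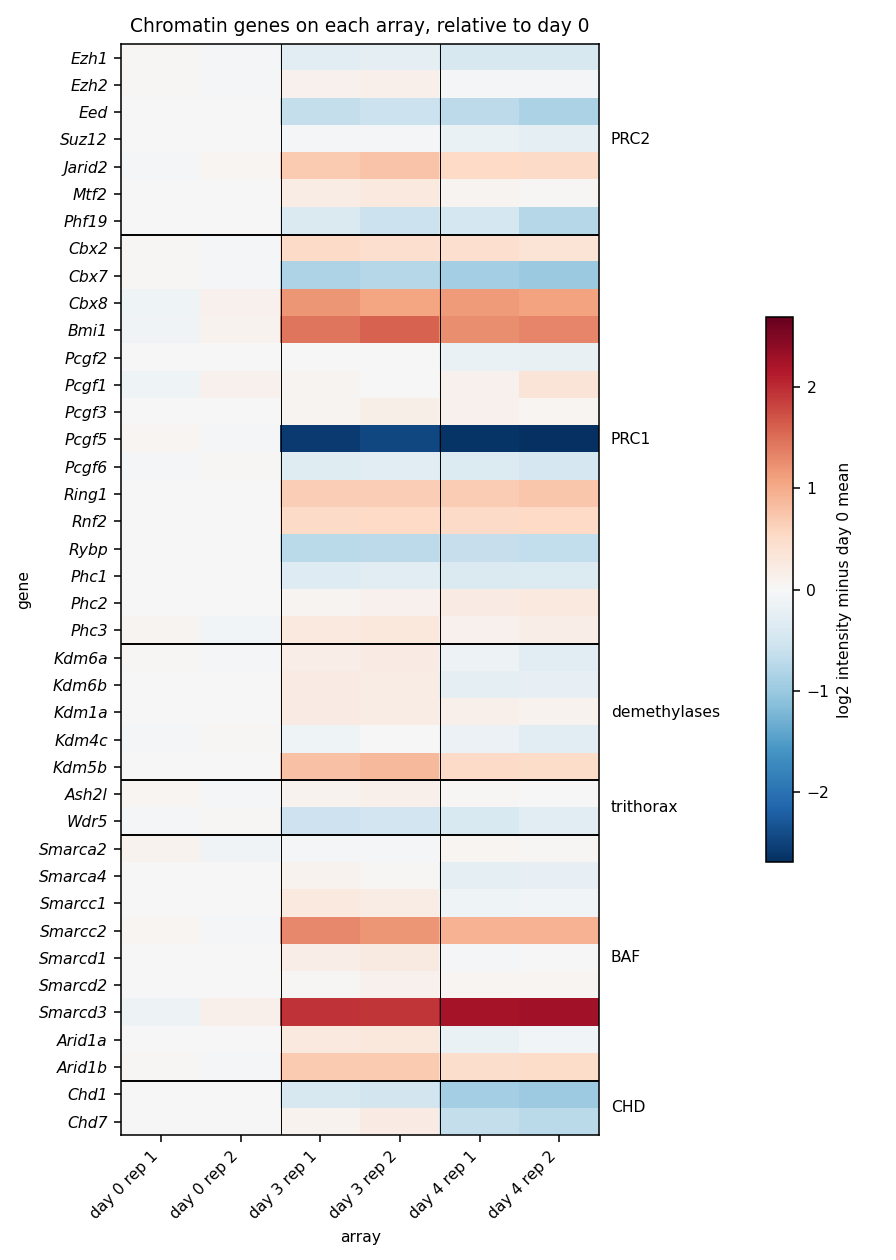
Heat map of the 40 chromatin genes (rows, grouped by complex) on the 6 arrays (columns). Color gives the log2 intensity minus the mean of the 2 day 0 arrays, from blue (lower) to red (higher). The 2 arrays of a day look alike, and Pcgf5 (−2.68 at day 4) and Smarcd3 (2.27) hold the extremes.

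PRC2 was measured through 7 genes, of which 2 rose and 3 fell at day 3, and 1 rose and 4 fell at day 4. For this and the later counts per complex, the shares over all genes were 23.8% higher and 28.1% lower at day 3. At day 4 they were 25.9% and 25.6%. Ezh2, the main H3 methyltransferase of dividing cells, had 11.70 and 11.64 on the day 0 arrays, 11.79 and 11.79 at day 3, and 11.62 and 11.61 at day 4. It was not called against day 0 on either day (0.12 ± 0.05 SE, adjusted p = 0.0853, and −0.05 ± 0.05, adjusted p = 0.452). Under other scalings Ezh2 was called higher at day 3 after cyclic loess (0.17, adjusted p = 0.024) and lower at day 4 after median centering (−0.20, adjusted p = 0.0108). Its sign in each comparison was the same without them. With the scaling unchanged, Ezh2 was called higher at day 3 with an intensity trend and robust moderation (adjusted p = 0.00509). The fit of genes that reach a mean of 6 called it higher at day 3 too (adjusted p = 0.0492). Ezh1, its paralogue of resting cells, fell by 0.27 at day 3 (SE 0.05, adjusted p = 0.00449) and by 0.44 at day 4 (adjusted p = 0.000322). The 2 arrays of each later day lay below both day 0 arrays for Ezh1 (9.65 to 9.67 at day 3 and 9.49 on both arrays of day 4, against 9.89 and 9.97).

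Eed, the subunit that reads the methyl mark, had the largest fall within PRC2. Its values were 10.11 and 10.14 before RA, 9.49 and 9.53 after 3 days and 9.42 and 9.27 after 4 days. The fall of 0.78 at day 4 (SE 0.07, adjusted p = 4.07e-05) left no overlap between the days. A second Eed probe set was too dim to show a fall (a mean of 4.91 over the 6 arrays, below the limit of 6), and was not called. Suz12, the scaffold subunit, had a log2 change of −0.05 at day 3 (not called) and fell by 0.21 at day 4 (adjusted p = 0.0145). That call was lost without replicate 2 of day 0 (adjusted p = 0.0625) or replicate 2 of day 4 (adjusted p = 0.0789).

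The accessory subunits of PRC2 went in different directions. Jarid2, which helps to bring PRC2 to its targets, rose from 11.15 and 11.25 at day 0 to 11.91 and 11.98 at day 3, and had 11.74 and 11.72 at day 4. Its change was 0.74 ± 0.06 (SE) at day 3 and 0.53 ± 0.06 at day 4 (adjusted p = 3.5e-05 and 0.000184). Mtf2, a Polycomb-like protein that binds CpG-rich DNA, rose by 0.24 at day 3 (adjusted p = 0.00853, lost without replicate 2 of day 3, 0.0569) and had a change of 0.05 at day 4 (not called). Phf19, another Polycomb-like protein, fell by 0.48 at day 3 and by 0.62 at day 4 (SE 0.11 each, adjusted p = 0.00809 and 0.00223). Without replicate 2 of day 3 the day 3 call of Phf19 was lost (adjusted p = 0.0525). From day 3 to day 4 every one of the 7 PRC2 changes lay between −0.22 and −0.14, and Ezh2, Jarid2 and Mtf2 were called. All 3 calls were lost when any single array of day 3 or of day 4 was left out (adjusted p = 0.0775 to 0.186), and those of Ezh2 and Mtf2 also without either array of day 0 (adjusted p = 0.0545 and 0.0627).

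PRC1 had 15 measured genes and the widest range of changes. At day 3, 6 rose and 5 fell, and at day 4, 6 rose and 6 fell. Pcgf5, a Pcgf protein of the variant PRC1 complexes that lack Cbx subunits, had 10.19 and 10.09 at day 0, then 7.55 and 7.68 (day 3) and 7.51 and 7.43 (day 4). All 4 arrays with RA were over 2 log2 units below both day 0 arrays. The change of Pcgf5 was −2.53 at day 3 (SE 0.07, adjusted p = 2.63e-07) and −2.68 at day 4 (SE 0.07, adjusted p = 1.79e-07), the largest falls among the 40 genes.

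Bmi1 (also called Pcgf4), a Pcgf protein of the canonical PRC1 complexes and known for the self-renewal of adult stem cells, moved the other way. Its values were 7.85 and 8.04 before RA, 9.39 and 9.53 after 3 days and 9.20 and 9.27 after 4 days. The rise was 1.52 ± 0.08 (SE) at day 3 and 1.29 ± 0.08 at day 4 (adjusted p = 5.33e-06 and 1.01e-05). Pcgf2, the paralogue that canonical PRC1 of ES cells contains, had 9.60 and 9.63 at day 0, then 9.61 and 9.61 (day 3) and 9.43 and 9.42 (day 4). It fell by 0.19 at day 4 (adjusted p = 0.0158), a call lost without replicate 2 of day 0 (adjusted p = 0.0741), replicate 1 of day 4 (0.0513) or replicate 2 of day 4 (0.0622). Pcgf6, of a variant complex, fell by 0.31 at day 3 and by 0.41 at day 4 (adjusted p = 0.00261 and 0.000621). Pcgf1 (0.04 and 0.23) and Pcgf3 (0.12 and 0.08), both of variant complexes, were not called at day 3 or day 4. After cyclic loess Pcgf3 was called higher at day 3 (0.15, adjusted p = 0.0495). With an intensity trend and robust moderation, Pcgf3 was called higher at day 3 (adjusted p = 0.0292) and Pcgf1 at day 4 (adjusted p = 0.0472). Pcgf1 was called higher at day 4 without replicate 2 of day 0 (0.35, adjusted p = 0.0387) or replicate 1 of day 4 (0.35, adjusted p = 0.0485).

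The Cbx subunits, which read the mark of PRC2, showed the same kind of divergence. Cbx7, the main Cbx protein of ES cells, had 8.94 and 8.90 before RA, 8.08 and 8.14 after 3 days and 7.99 and 7.92 after 4 days. It fell by 0.81 and 0.96 (SE 0.06 each, adjusted p = 1.76e-05 and 6.53e-06). Cbx8, a Cbx protein of differentiating cells, had 7.17 and 7.39 at day 0, then 8.48 and 8.35 (day 3) and 8.42 and 8.36 (day 4). Its rise of 1.14 ± 0.09 (SE) at day 3 and 1.11 ± 0.09 at day 4 (adjusted p = 2.68e-05 and 2.57e-05) kept the arrays of day 0 below all others. Cbx2, whose protein compacts chromatin, rose by 0.48 at day 3 and by 0.41 at day 4 (SE 0.06 each, adjusted p = 0.000243 and 0.00053).

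**Figure D2:**
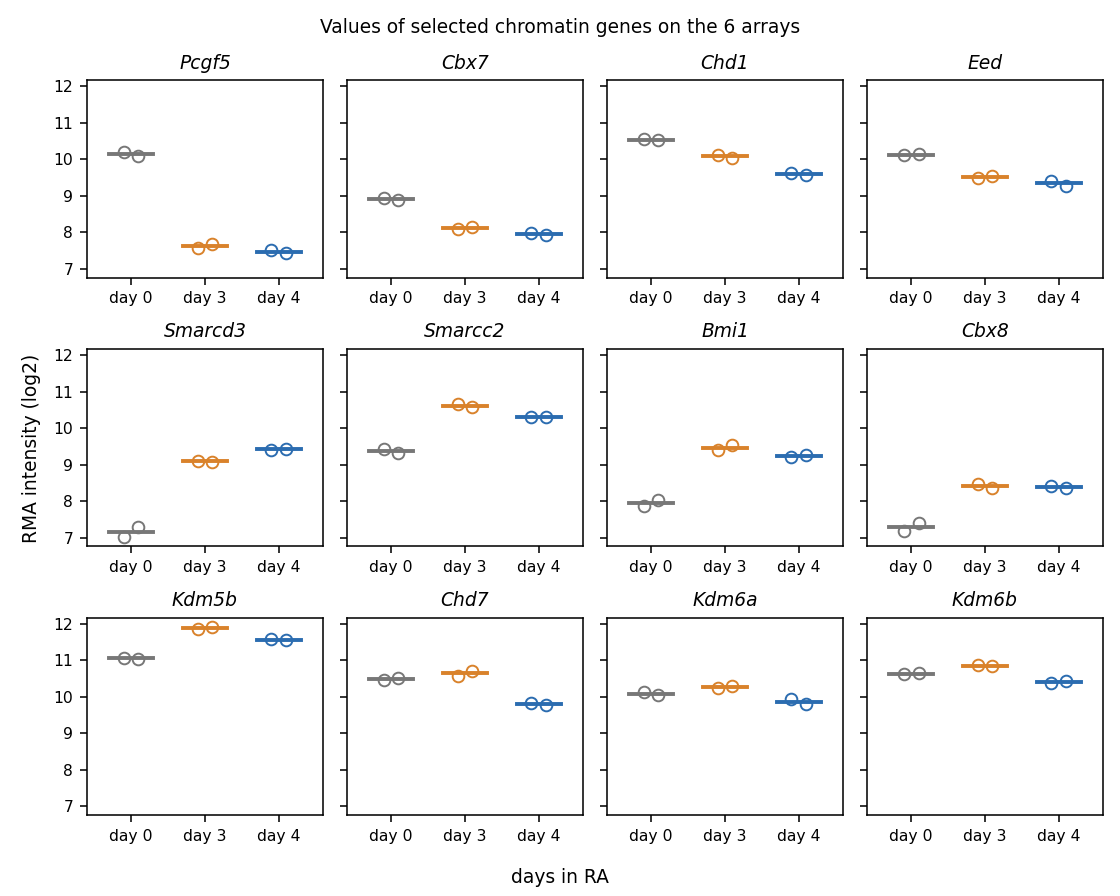
Log2 RMA intensity (vertical axis) of 12 chromatin genes on each array by days in RA (horizontal axis). Circles are single arrays and bars are the mean of the 2 arrays of a day. Pcgf5, Cbx7, Chd1 and Eed were lower at day 3 and day 4, Smarcd3, Smarcc2, Bmi1, Cbx8 and Kdm5b were higher, and Chd7, Kdm6a and Kdm6b had their lowest values at day 4.

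The catalytic Ring subunits both rose. Ring1 had 8.31 and 8.29 at day 0 and 8.99 and 9.06 at day 4, a change of 0.73 ± 0.05 (SE, adjusted p = 2.04e-05). Rnf2, the main ubiquitin ligase of PRC1, went from 11.38 and 11.39 to 11.90 and 11.93, a change of 0.53 ± 0.05 (adjusted p = 7.91e-05). Their day 3 changes were 0.66 and 0.52, and neither gene was called between day 3 and day 4. Rybp, which takes the place of Cbx subunits in variant PRC1, fell by 0.72 at day 3 and by 0.65 at day 4 (SE 0.05 each, adjusted p = 2.06e-05 and 3.01e-05), and its dimmer probe set fell by 0.35 and 0.48. The Phc subunits, which join PRC1 complexes into larger assemblies, differed. Phc1 fell by 0.32 and 0.38 (adjusted p = 0.00144 and 0.000507). Phc2 rose by 0.24 at day 4 (adjusted p = 0.00645), a call lost after median centering (0.09, adjusted p = 0.176). Phc3 rose by 0.27 at day 3 (adjusted p = 0.00858) and had a change of 0.15 at day 4 (not called), whereas its dimmer probe set rose by 0.88 and 0.51. The day 3 call of the brighter Phc3 probe set was lost without replicate 2 of day 0 (adjusted p = 0.0508), and at day 4 it was called higher without replicate 1 of day 0 (0.22, adjusted p = 0.0413). Between day 3 and day 4 only 1 of the 15 PRC1 genes was called, Pcgf2 (−0.18, adjusted p = 0.0355), and its call was lost without any single array of day 3 or day 4 (adjusted p = 0.095 to 0.136).

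The 5 demethylase genes included 4 that rose at day 3 and 1 at day 4, when 3 fell. Kdm5b, which removes the active methyl mark on H3, had 11.07 and 11.04 before RA, 11.85 and 11.92 after 3 days and 11.58 and 11.55 after 4 days. It rose by 0.83 ± 0.05 (SE, adjusted p = 1.35e-05) at day 3 and was higher by 0.51 ± 0.05 at day 4 (adjusted p = 0.000149). Kdm6a and Kdm6b, the enzymes that remove the mark of PRC2, gave another time course. Kdm6a had 10.13 and 10.04 at day 0, then 10.26 and 10.30 (day 3) and 9.94 and 9.80 (day 4). Kdm6b had 10.62 and 10.66, then 10.86 and 10.84, and then 10.39 and 10.42. For both genes the day 3 arrays were the highest and the day 4 arrays the lowest, with no overlap. The fall between day 3 and day 4 was 0.41 for Kdm6a (SE 0.07, adjusted p = 0.00539) and 0.45 for Kdm6b (SE 0.05, adjusted p = 0.00153), and both calls held in each of the 14 alternative fits. Against day 0 the changes were smaller. Kdm6a had 0.19 at day 3 (adjusted p = 0.0454), a call lost without any single array of day 0 or day 3 (adjusted p = 0.0609 to 0.195), and −0.21 at day 4 (adjusted p = 0.0314), lost without replicate 1 of day 0 (0.148) or replicate 2 of day 4 (0.164). Kdm6b had 0.21 at day 3 (adjusted p = 0.0116), lost without replicate 1 of day 0 (0.0582) or replicate 1 of day 3 (0.0609), and −0.24 at day 4 (adjusted p = 0.00666). Kdm1a, a demethylase of enhancers, rose by 0.22 at day 3 (adjusted p = 0.00971, lost without replicate 1 of day 3, 0.0509) and had a change of 0.12 at day 4 (not called). Kdm4c, which removes a repressive methyl mark from H3, fell by 0.23 at day 4 (adjusted p = 0.0263), a call lost without replicate 1 of day 0 (adjusted p = 0.0505), replicate 2 of day 0 (0.123) or replicate 2 of day 4 (0.142).

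Trithorax was represented by 2 measured genes of the core that all H3 methyltransferases of the MLL type share. Wdr5 had 10.61 and 10.65 before RA, 10.07 and 10.12 after 3 days and 10.22 and 10.35 after 4 days. It fell by 0.53 at day 3 (SE 0.06, adjusted p = 0.000286) and by 0.35 at day 4 (adjusted p = 0.00255). Ash2l had changes of 0.12 and 0.02 and was not called. After cyclic loess (0.16, adjusted p = 0.0407) or with an intensity trend and robust moderation (adjusted p = 0.0173), Ash2l was called higher at day 3.

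In the BAF complex, 6 of 9 genes rose and 0 fell at day 3, and 3 rose and 1 fell at day 4. Smarcd3, the subunit of the complex in heart and other muscle precursors, rose most of the 40 genes. Its values were 7.00 and 7.29 at day 0, then 9.09 and 9.08 (day 3) and 9.40 and 9.43 (day 4). The changes were 1.94 ± 0.09 (SE) and 2.27 ± 0.09 (adjusted p = 2.91e-06 and 1.28e-06). Its day 4 arrays lay above its day 3 arrays (0.33, adjusted p = 0.0363), the only rise called between these days, but the call was lost in 7 of the 14 alternative fits, among them median centering (0.28, adjusted p = 0.078), cyclic loess (adjusted p = 0.0544) and the fits without any single array of day 3 or day 4 (adjusted p = 0.106 to 0.14). Its relatives Smarcd1 and Smarcd2 moved less. Smarcd1 rose by 0.22 at day 3 (adjusted p = 0.0102, lost without replicate 2 of day 3, 0.0659) and had a change of −0.02 at day 4, and Smarcd2 had changes of 0.07 and 0.05 (not called).

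Smarcc2, a scaffold subunit that enters the complex as ES cells differentiate, had 9.42 and 9.32 before RA, 10.66 and 10.57 after 3 days and 10.32 and 10.31 after 4 days. It rose by 1.24 ± 0.06 (SE, adjusted p = 3.4e-06) at day 3 and by 0.94 ± 0.06 at day 4 (adjusted p = 1.14e-05), and was thus highest at day 3. Smarcc1, the scaffold subunit typical of ES cells, rose by 0.23 at day 3 (adjusted p = 0.00781, lost without replicate 1 of day 3, 0.0538) and had a change of −0.09 at day 4 (not called). Of the DNA-binding subunits, Arid1b rose by 0.70 and 0.49 (SE 0.05 each, adjusted p = 2.48e-05 and 0.000152). Arid1a rose by 0.26 at day 3 (adjusted p = 0.00657) and had a change of −0.13 at day 4 (not called). After median centering, Smarcc1, Smarcd1 and Arid1a were called lower at day 4 (−0.24, −0.17 and −0.28, adjusted p = 0.00744, 0.0286 and 0.00603). Of the ATPases that drive the complex, Smarca4 fell by 0.23 at day 4 (SE 0.05, adjusted p = 0.00848) with arrays at 11.99 and 11.97 at day 0 and 11.74 and 11.77 at day 4. Smarca2 had changes of −0.02 and 0.04 and was not called.

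Between day 3 and day 4, 6 of the 9 BAF genes fell, namely Arid1a (−0.40, adjusted p = 0.00344), Smarcc1 (−0.33, adjusted p = 0.00514), Smarcc2 (−0.30, adjusted p = 0.0114), Smarca4 (−0.29, adjusted p = 0.0077), Smarcd1 (−0.24, adjusted p = 0.0157) and Arid1b (−0.22, adjusted p = 0.0204). The calls of Arid1b and Smarcd1 were lost without any single array of day 3 or day 4 (adjusted p = 0.0507 to 0.0877). That of Smarcc2 was lost without replicate 1 of day 3 (adjusted p = 0.0748) or replicate 2 of day 4 (0.0592), and that of Smarca4 without replicate 1 of day 3 (0.0554). The calls of Arid1a and Smarcc1 held in each of the 14 alternative fits. Of all genes, 12.2% fell between these days.

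**Figure D3:**
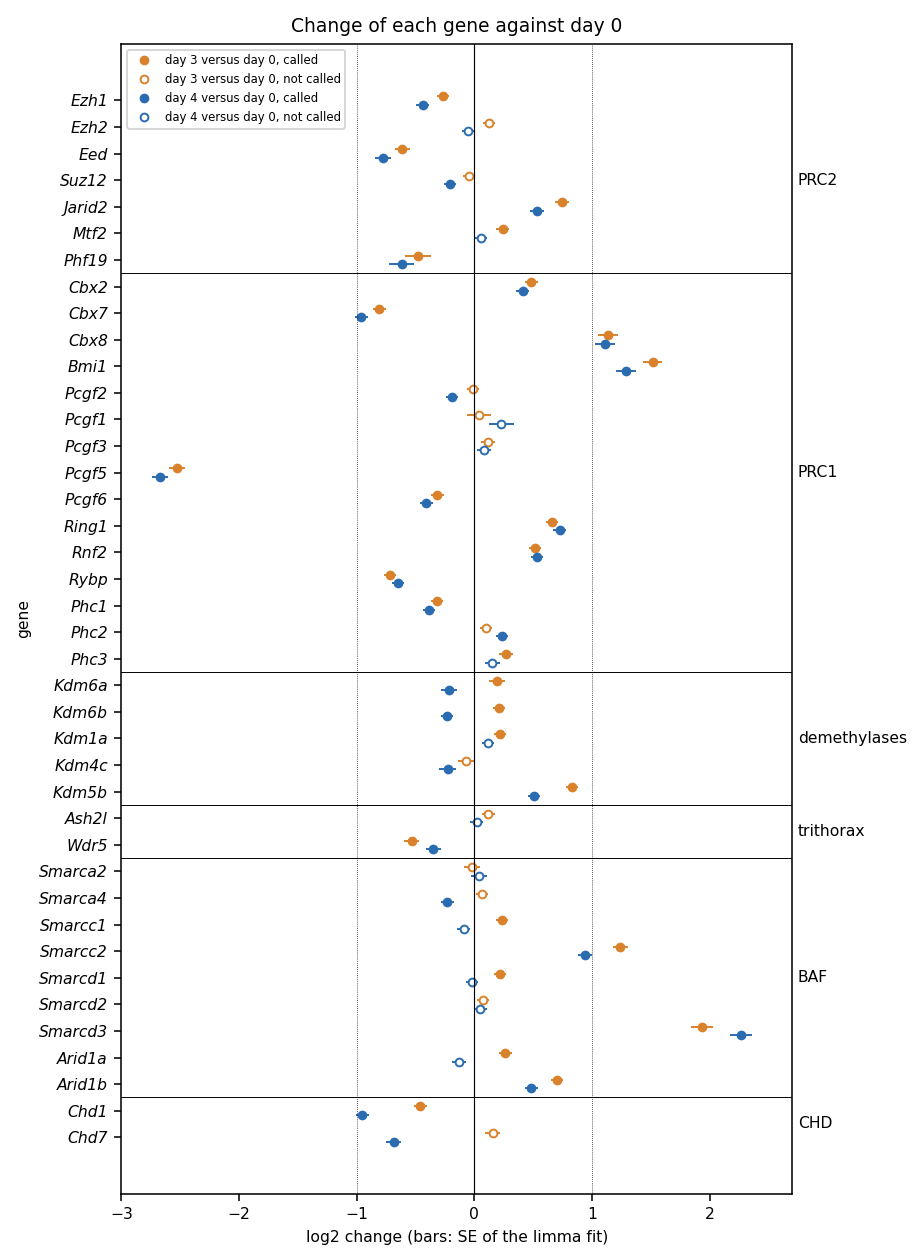
Log2 change of each of the 40 genes at day 3 (orange) and day 4 (blue) against day 0, with SE of the limma fit as bars. Filled points passed an adjusted p of 0.05, and dotted lines mark 2-fold. Cbx8, Bmi1, Smarcc2 and Smarcd3 lie beyond the upper line at day 3, and Pcgf5 beyond the lower line at both days.

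Both CHD remodelers were lower at day 4. Chd1, which keeps the chromatin of ES cells open, had 10.55 and 10.53 at day 0, then 10.12 and 10.05 (day 3) and 9.62 and 9.56 (day 4). It fell by 0.46 at day 3, by 0.95 at day 4 and by 0.49 between these days (SE 0.06 each, adjusted p = 0.000305, 6.48e-06 and 0.00134). Chd7, a remodeler of enhancers that is needed in neural crest, had 10.47 and 10.51 before RA, 10.58 and 10.71 after 3 days and 9.84 and 9.77 after 4 days. It was not called at day 3 (0.16, adjusted p = 0.0838; 0.18 and 0.0461 after cyclic loess) and fell by 0.69 at day 4 (SE 0.07, adjusted p = 7.94e-05). Its fall of 0.84 from day 3 to day 4 (SE 0.07, adjusted p = 0.000438) was the largest change between these days among the 40 genes.

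Chd7 is covered by 30 probe sets with a single symbol, which gives repeated readings of the same RNA on the same arrays and not further replicates. Their calls come from a separate fit of all 35557 probe sets, in which the brightest had an adjusted p of 0.00093 at day 4 versus day 0. At day 4 all 30 were called lower than at day 0, with changes from −1.02 to −0.58 and a median of −0.86. Between day 3 and day 4 all 30 were called lower as well (−1.29 to −0.62). At day 3 their changes lay from −0.16 to 0.31, and 2 were called higher and 28 not called. The brightest probe set, with −0.69, lay on the side of the smaller falls.

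**Figure D4:**
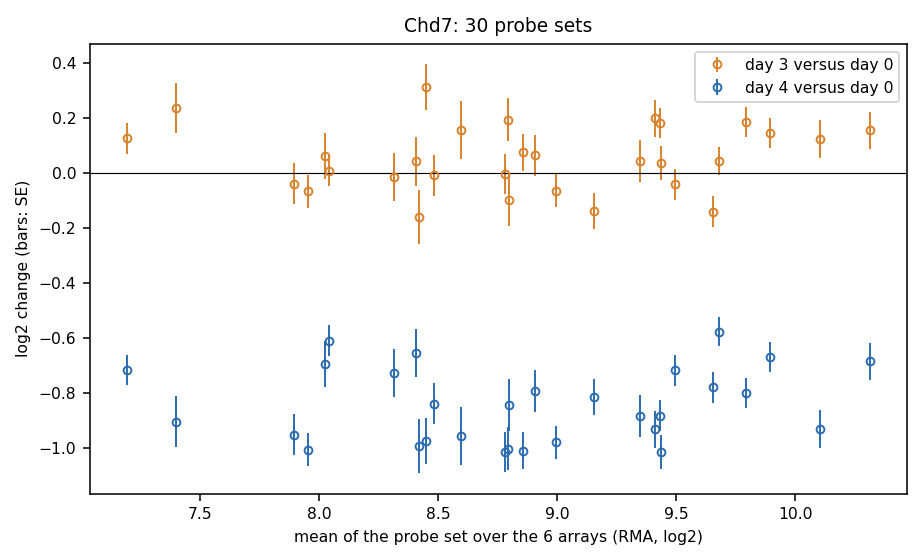
Log2 change of the 30 Chd7 probe sets (circles, with SE as bars) against their mean intensity over the 6 arrays (log2), at day 3 (orange) and day 4 (blue) versus day 0. The day 4 changes run from −1.02 to −0.58 at all intensities, and the day 3 changes from −0.16 to 0.31.

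Related subunits were compared through the difference of the log2 values of a pair on the same array, which cancels any shift that both genes share. Such a difference describes RNA and does not measure an exchange of subunits within a complex. It also moves when only 1 gene of the pair changes. Since probe sets differ in response, the level of such a difference has no meaning of its own, and its values on the arrays serve only to show how far it moved between days. With 2 arrays against 2 no exact test can reach 0.05. Of 13 pairs, 12 had no overlap between the day 0 and day 4 arrays, and 5 moved by 1 or more. The share of other gene pairs without overlap was not computed, so the count of 12 is not read as a result about these pairs. It includes Smarcd2 minus Smarcd1, which moved by only 0.07. Smarcd3 minus Smarcd1 was −4.37 and −4.09 at day 0 and −1.96 and −1.94 at day 4, a move of 2.29. Cbx8 minus Cbx7 went from −1.77 and −1.51 to 0.43 and 0.43, a move of 2.07. Pcgf2 minus Bmi1 went from 1.74 and 1.60 to 0.23 and 0.15, a move of −1.48. In each of these pairs the 2 arrays of a day lay close together relative to the move. Smarcd1 was not called at day 4 (−0.02), whereas Smarcd3 rose by 2.27. Pcgf2 fell by only 0.19 at day 4, whereas Bmi1 rose by 1.29. Cbx7 fell by 0.96 and Cbx8 rose by 1.11.

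Cbx2 minus Cbx7 moved by 1.37, and Smarcc2 minus Smarcc1 by 1.03. Of the latter pair, Smarcc2 rose by 0.94 at day 4 and Smarcc1 was not called (−0.09). Smaller moves at day 4 were those of Phc2 minus Phc1 (0.62), Arid1b minus Arid1a (0.62), Phc3 minus Phc1 (0.54), Ezh1 minus Ezh2 (−0.39), Smarca2 minus Smarca4 (0.27), Ring1 minus Rnf2 (0.19) and Smarcd2 minus Smarcd1 (0.07). Kdm6b minus Kdm6a was the pair whose days overlapped (−0.02). The values of these enzymes rose and fell by like amounts. Most of each large move was in place at day 3, with 1.95 for Cbx8 minus Cbx7, −1.52 for Pcgf2 minus Bmi1 and 1.01 for Smarcc2 minus Smarcc1, while Smarcd3 minus Smarcd1 was at 1.72 at day 3.

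**Figure D5:**
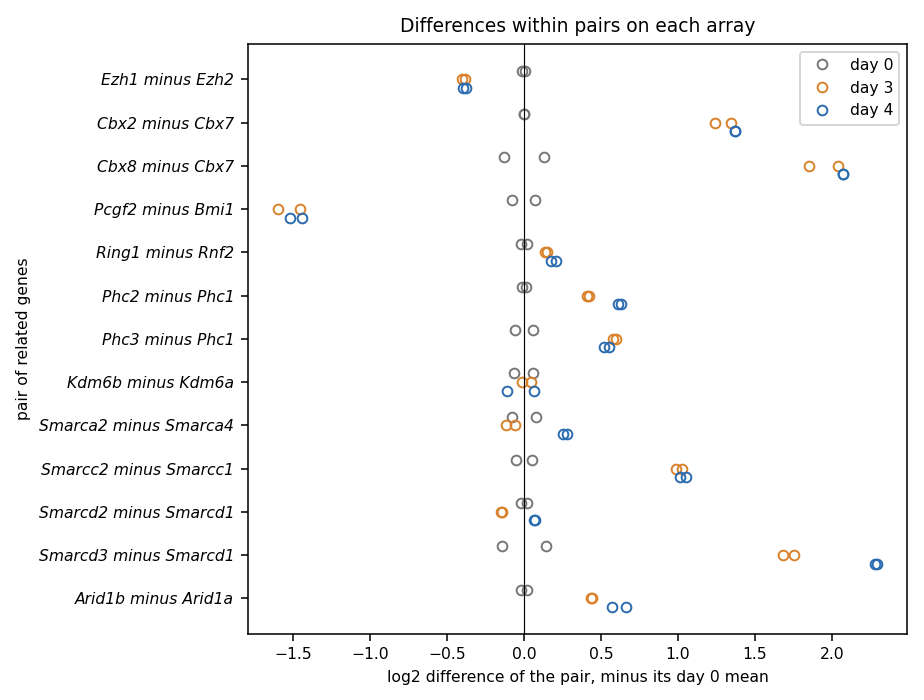
Difference of log2 values within 13 pairs of related genes on each array, minus the mean of the pair at day 0 (horizontal axis, log2). Circles are single arrays at day 0 (gray), day 3 (orange) and day 4 (blue). Smarcd3 minus Smarcd1 and Cbx8 minus Cbx7 moved furthest to the right (2.29 and 2.07 at day 4), and Pcgf2 minus Bmi1 furthest to the left (−1.48).

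Another 119 chromatin genes, of the same complexes and of related ones (deubiquitinase, NuRD, ISWI and INO80), gave a setting for these values. At day 3, 52 rose and 30 fell, at day 4, 31 rose and 44 fell, and from day 3 to day 4, 10 rose and 57 fell (47.9%), with a median of −0.19. More falls than rises between day 3 and day 4 were thus found in the 40 genes and in the 119. The falls were many among other trithorax and MLL genes (14 of 20) and ISWI, INO80 and SNF2 remodelers (13 of 18), and fewer among other BAF genes (4 of 21). Among other PRC2 genes, Epop, a PRC2 partner of ES cells, fell by 1.19 at day 4 (SE 0.06, adjusted p = 2.28e-06), Phf1 rose by 0.41 (adjusted p = 0.000388) and Aebp2 was not called (0.11). Among other PRC1 and deubiquitinase genes, 5 of 20 rose and 10 fell at day 4, with Asxl3 at 1.75, Sfmbt2 at −1.42 and L3mbtl2, of the variant complex that holds Pcgf6, at −1.35, whereas Scml4 was not called (0.13).

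Other BAF genes included the largest rise of the wider set, that of Bcl11a (2.80 ± 0.07 SE at day 4, adjusted p = 1.78e-07), a subunit known from neural and blood cells. Bcl7a (1.19) and Ss18l1 (0.60), a subunit of neurons, rose too, and Bicra was not called at day 4 (−0.15). Sall4, a zinc finger protein of pluripotent cells that binds the NuRD complex, fell by 4.21 (SE 0.11, adjusted p = 1.77e-07), while the NuRD ATPase Chd3 rose by 1.61, Gatad2a fell by 0.72 and Cdk2ap1 was not called (−0.08). Of the trithorax and MLL genes, Kmt2e rose by 1.15, Kmt2d fell by 0.86, Kmt2a fell by 0.61 and Psip1 was not called (−0.16). Of the demethylases, Kdm4b rose by 0.94, Phf2 rose by 0.92, Jmjd1c fell by 0.76 and Kdm1b was not called (0.10). Baz1a fell by 1.77, Cecr2 fell by 1.20 and Baz2a fell by 1.13, all partners of ISWI ATPases, and Srcap was not called (−0.15).

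Cell type markers moved over the same days. The arrays hold RNA of whole EBs, in which fewer cells of a type and less RNA per cell cannot be told apart. The labels call the cells embryonic stem cells on all arrays, but the mean of 10 pluripotency markers was 9.14 to 9.18 at day 0, 6.73 to 6.76 at day 3 and 6.57 to 6.69 at day 4 (10 of 10 lower at both days), and Zfp42 was below 6 on all 6 arrays. Mesenchyme markers had a mean of 7.05 to 7.22, 8.37 to 8.41 and 8.74 to 8.75 at the 3 days (7 of 10 higher and 2 lower at day 4, Lum below 6 throughout), and neural markers of 6.82 to 6.85, 7.17 to 7.21 and 7.26 to 7.29 (4 of 10 higher and 2 lower, Elavl4 below 6). Endothelial markers went from 8.73 to 8.81 at day 0 to 9.78 to 9.90 and 9.53 to 9.57 (6 of 8 higher at day 4, with Emcn at 4.75, and 2 lower, Kdr at −1.04 and Tek at −1.14). Endoderm markers went from 7.25 to 7.37 to 7.81 to 7.96 and 7.86 to 7.89 (5 of 10 higher and 1 lower, Afp and Apob below 6), and cardiac markers from 7.13 to 7.18 to 7.34 to 7.45 and 7.49 to 7.51 (2 of 8 higher, with Tbx5 at 3.77, and 3 lower, Actc1 at −1.10, Nkx2-5 at −0.42 and Myl2, below 6 throughout, at −0.23).

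From day 3 to day 4, 6 of 10 mesenchyme markers rose, 4 of 8 endothelial markers fell, and 4 of 10 neural markers rose and 2 fell. Endoderm markers had 1 higher and 1 lower of 10, pluripotency markers 1 lower of 10, and cardiac markers 0 called of 8. The mean of 6 embryonic red cell markers was 7.29 to 7.35 at day 0, 10.42 to 10.55 at day 3 and 8.66 to 8.85 at day 4, and 6 of 6 fell from day 3 to day 4. Cycling cell markers had a mean of 11.99 to 12.00, 11.68 to 11.71 and 11.55 to 11.56, with 11 of 11 lower at day 4 than at day 0, and 2 of 11 lower at day 4 than at day 3. The part of these cell types in the changes of the chromatin genes was not tested. Array medians were 6.69 to 6.85, and the 2 arrays of a day correlated at 0.999 on each of the 3 days.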

How the data were processed

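RNA of EBs was hybridized to Affymetrix Mouse Gene 1.0 ST arrays, 2 per day at day 0, day 3 and day 4, and groups and replicate numbers came from the sample titles. The authors processed the scans in Partek (version for the arrays not given in the sources used here) with RMA, which corrects the background, equalizes the distributions of the arrays by quantiles and summarizes each probe set, and deposited the result as log2 intensity. Every change is therefore measured against the rest of the array, and folds of dim probe sets are understated. Of 35557 probe sets, 21789 carried 1 gene symbol and 1621 several. The brightest probe set was kept for each of 999 genes with more than 1, which left 19938 genes.

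All 6 arrays entered 1 limma fit with a mean per day (lmFit and eBayes, two-sided; R 4.3.3, limma 3.58.1). Genes with a Benjamini-Hochberg adjusted p (19938 genes per comparison) of 0.05 or below were called. Where single probe sets of a gene with several are given, their calls come from the same kind of fit over all 35557 probe sets. On simulated data for day 4 versus day 0 with 19938 genes, 64.2% of 67 genes changed by 0.5 (log2), 91% of 67 changed by 1 and 100% of 66 changed by 2 were recovered, with 9 false calls. Only these genes were changed, whereas 51.5% of all genes were called in the data. The adjusted p depends on that share, so these rates check the procedure and do not give the recovery in the data. Precision is limited by the 2 arrays per day. In 14 alternative fits the normalization, the moderation, the arrays, the probe sets or the filter was changed, and a 2-fold limit was tried as well.

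The genes, the lists of other chromatin genes and cell type markers, and the pairs were chosen with earlier results of these data known. The promoter motifs and the CpG limit of 15 were chosen after seeing the data. All listed genes may be named, those called with a 2-fold change are given on every array, and each other list adds up to 3 called genes with the largest change at day 4 and 1 not called. The fit of these arrays has no covariates. The array files name no genome build, and coordinates belong to the RefSeq promoter table alone.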

Additional observations from a re-analysis of the deposited data

Results flagged for a closer look

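Kdm6a and Kdm6b were called in opposite directions against the same day 0 arrays, higher at day 3 and lower at day 4. The flag also required the difference between the days to be called (−0.41 for Kdm6a and −0.45 for Kdm6b). That call is therefore a condition of the flag and not separate evidence. Of the 119 other chromatin genes, 2 had the same course. Chd4, the main ATPase of NuRD, was higher at day 3 (0.25, adjusted p = 0.00438), lower at day 4 (−0.24, adjusted p = 0.00527) and lower at day 4 than at day 3 (−0.49, adjusted p = 0.000984). Chd8, a remodeler that binds beta-catenin, was higher at day 3 (0.23, adjusted p = 0.0201), lower at day 4 (−0.27, adjusted p = 0.00887) and lower at day 4 than at day 3 (−0.50, adjusted p = 0.00212). Over all 19938 genes, dim ones included, 118 (0.592%) showed this course and 56 (0.281%) the opposite one. The opposite course was shown by 0 of the 40 genes and 0 of the 119. With median centering the day 3 calls of Kdm6a (0.09, adjusted p = 0.218) and Kdm6b (0.11, adjusted p = 0.115) were lost. Those of Chd4 and Chd8 were not followed gene by gene through the alternative fits.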

How the results depend on the processing

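Of the calls among the 40 genes, 20 of 28 at day 3, 23 of 28 at day 4 and 7 of 16 between day 3 and day 4 held in all 14 alternative fits. No result reversed. Requiring 2-fold left 4 genes higher and 1 lower at day 3, 3 and 1 at day 4, and 0 and 0 between the days (other chromatin genes: 10 and 4, 6 and 7, 0 and 0). The 1 gene higher between day 3 and day 4 became 0 with median centering, cyclic loess or all probe sets tested, 2 with an intensity trend and robust moderation or with genes of a mean of 6 or more, and 0 to 1 when single arrays were left out. The 15 lower genes became 7 to 13 when single arrays were left out, and 11 to 20 in the fits that kept all arrays of both days. Among other chromatin genes, the 52 higher and 30 lower at day 3 became 44 and 45 with median centering. The excess of rises over falls at day 3 was thus not kept. With the same centering, the 44 lower at day 4 became 68. Their 10 higher between the days became 4 with median centering, 6 with cyclic loess, 16 with an intensity trend, 6 with only these days fitted, 5 with all probe sets tested and 3 to 6 without single arrays. Replicate numbers did not pair the arrays (correlations of deviations 0.03, 0.06 and 0.08). With the replicate block, 18 genes were higher and 10 lower at day 3, 11 and 17 at day 4, 1 and 13 between the days, and 6 other chromatin genes were higher between the days. With the intensity signal and 2 arrays a day, changes of about 0.2 are near the limit of what was called, and the cause of these differences was not tested.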
